A study of Drosophila melanogaster with 12 samples.

Results

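The cuticle protein, Tweedle and Osiris genes were followed across 12 arrays of larval eye discs of Drosophila melanogaster. Members are all genes with a probe set of their own on the array whose symbol begins with Cpr and a digit, Lcp, Twdl or Osi. This gave 123 probe sets for 121 genes, among 18769 probe sets that are not manufacturer's controls. The 121 genes are 66 Cpr, 7 Lcp, 24 Twdl and 24 Osi genes. Another 5 probe sets match several genes, at least one of them in these families, and were left out.

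Cuticle is the chitin and protein layer that epithelia secrete on their apical side. Cpr and Lcp proteins carry the Rebers and Riddiford domain, which binds chitin, and Lcp genes were named for the cuticle of larvae. Tweedle proteins are a separate insect family of cuticle proteins, known from dominant mutants with a short and wide body. Osiris genes encode membrane proteins of epithelia that make cuticle and lie mostly in a single cluster on chromosome arm 3R. The eye disc is a folded larval epithelium that grows and patterns the future retina, and the lens cuticle of the eye is laid down later, in the pupa.

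The series holds 2 experiments of 6 arrays, each with 2 groups of 3. In the first, discs of genotype w carried the driver ro-Gal4, which uses regulatory DNA of the homeobox gene rough, over UAS-Run in the Runt group and over UAS-Run[G163R], an altered Runt, in the Runt G163R group. Every array of this experiment thus carried a Runt transgene. In the second, the sens mutant group was w; sensDF2RES/sensDF2RES; sensE1/sensE1 and its control group was w; sensDF2RES/+; sensE1/+. All discs came from wandering larvae, reared at room temperature, with the antennal part removed. The labels do not say whether arrays of a group came from separate crosses, so the p-values reflect the spread of these arrays alone, which may be technical. RNA of whole discs was measured, so fewer cells of a type and less RNA per cell cannot be told apart.

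Values are the deposited log2 values, which ran from 1.63 to 15.42, and 54.1% to 54.9% of probe sets lay below 3 on each array. This dense range below 3 is called the floor. Differences of genes that lie in it are compressed, and sizes against it are approximate. Values of different probe sets depend on the probes, so genes are compared between groups and not with each other. Arrays of the same group correlated at 0.993 to 0.998. In discs labelled sens mutant the sens transcript was at 10.78, 10.36 and 10.61, above 8.96, 9.30 and 9.61 in controls (difference 1.29, SE 0.173, limma adjusted p = 0.00112). That probe set therefore does not check the genotype, and groups are named as labelled. The genes boss and ro were also chosen for the labels. Of these, boss was at 2.27, 2.39 and 2.59 in sens mutants and 6.48, 6.51 and 6.38 in controls. It fell by 4.04 (SE 0.281, limma adjusted p = 2.42e-05), and ro differed by 0.67 (adjusted p = 0.167). The 10 markers of eye disc, such as gl and so, averaged 9.83 to 10.31 on every array.

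Most of these genes gave no signal above the floor. All 12 arrays lay below 3 for 87 of 121 genes, namely 47 Cpr, 5 Lcp, 18 Twdl and 17 Osi genes. At least 1 array exceeded 5 for 18 genes, and all 12 arrays did so for 8. Of the 121 genes, 53 passed the filter on low values and were tested: 29 Cpr, 4 Lcp, 11 Twdl and 9 Osi genes. The 70 probe sets not tested had values of 1.92 to 3.21. Among genes that stayed in the floor were TwdlD, at 2.15 to 2.19, and Cpr72Ec, a protein of the adult corneal lens, at 2.18 to 2.22. Over all 121 genes, tested or not, the median difference was 0.00 for Runt against Runt G163R and -0.01 for sens mutant against control. Over all probe sets without the filter it was likewise 0.00 and -0.01, and over the 11470 probe sets tested 0.00 and 0.03.

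**Figure D1:**
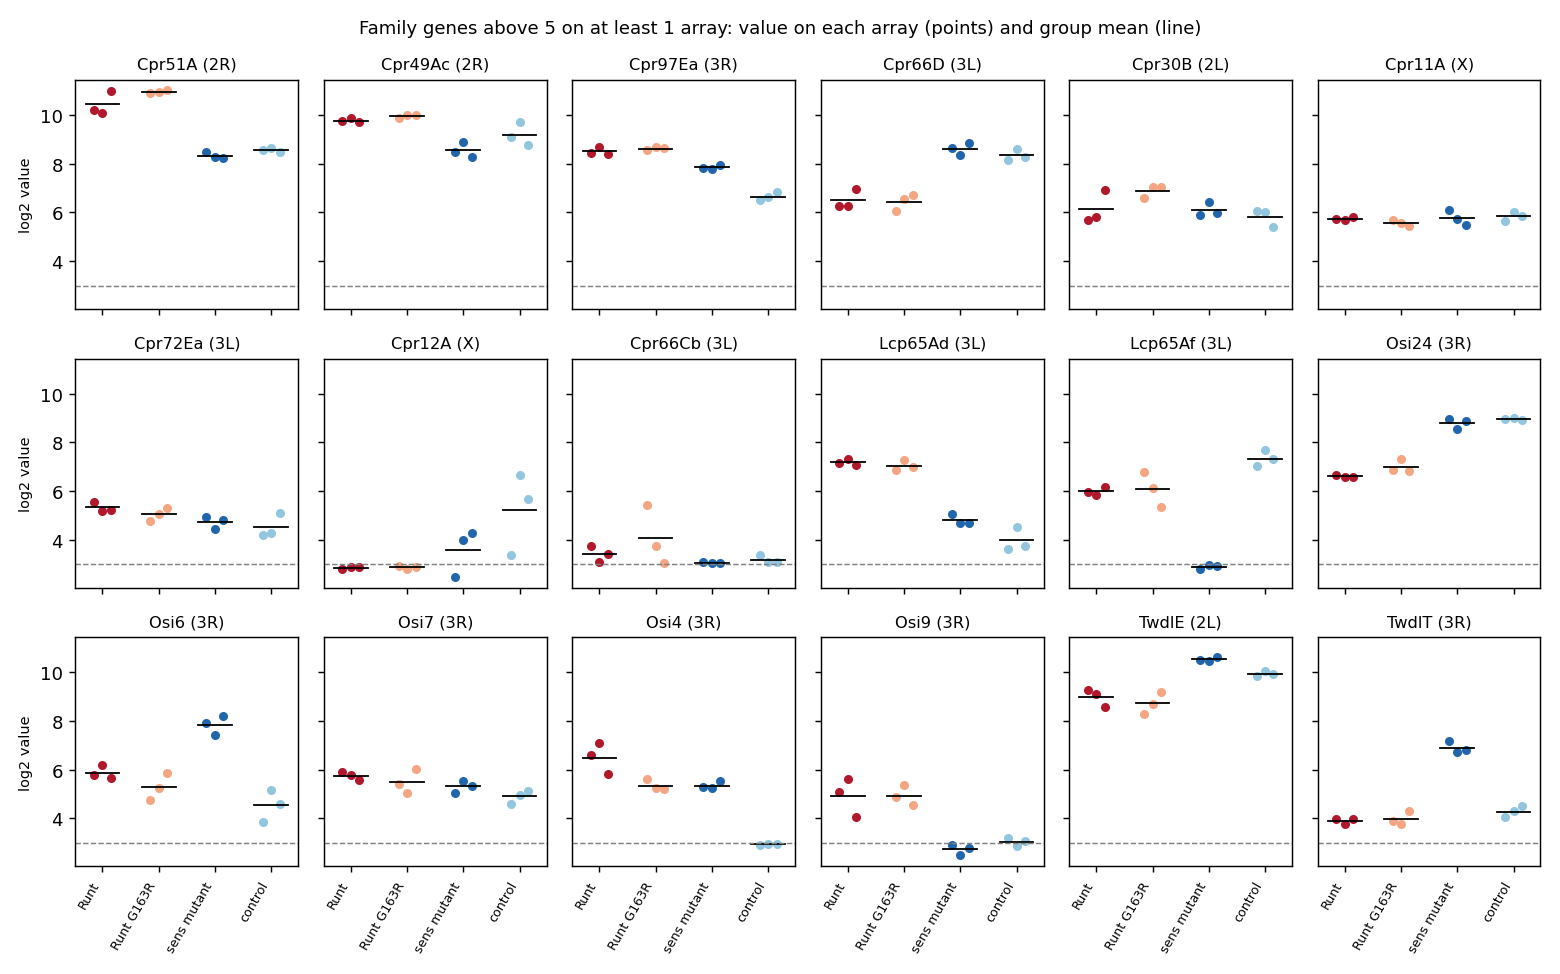
Deposited log2 values on each array (points) and group means (lines) for the 18 family genes with at least 1 array above 5, with the chromosome arm in brackets. The dashed line marks the floor at 3. Lcp65Af lies at the floor in sens mutants and Osi4 lies at the floor in controls, while the other groups of both genes lie above it.

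The sens comparison asks which transcripts differ between discs homozygous and heterozygous for the sens elements. By limma, 7 of 53 tested members were called at an adjusted p under 0.05, 5 higher and 2 lower in sens mutants. Over all probe sets tested 16.9% were called in this comparison, 11.6% higher and 5.3% lower, so the number of members called is near the background. The arrays of the groups did not overlap for 19 of 53 members, beside 38% of all probe sets. The members called were Osi6, TwdlT, Osi4, Cpr97Ea and Lcp65Ad among those higher, and Lcp65Af and Cpr64Ac among those lower. Osi6, TwdlT, Osi4, Cpr97Ea and Lcp65Af were called under each of 22 alternatives.

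Lcp65Af is a larval cuticle protein gene of the Lcp65A group on 3L. It was at 2.82, 2.95 and 2.92 in sens mutants, against 7.02, 7.67 and 7.31 in controls. The mutant arrays all lay in the floor and the control arrays all lay above 7. It fell by 4.44 (log2, SE 0.311, adjusted p = 2.44e-05), which is 21.6-fold lower on these compressed values. In the other experiment it stood between them, at 5.96, 5.86 and 6.15 with Runt and 6.78, 6.14 and 5.35 with Runt G163R.

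Lcp65Ad, a neighbouring gene of the same group on 3L, differed in the other direction. Its values were 5.06, 4.70 and 4.67 in sens mutants and 3.64, 4.54 and 3.74 in controls. It rose by 0.84 (SE 0.239, adjusted p = 0.0392), but the lowest mutant array was only slightly above the highest control array. The call held in 10 of 22 alternatives, with adjusted p between 0.0061 and 0.132, and it was lost without any one of the sens mutant arrays or without control replicate 1 or 3 (adjusted p 0.0699 to 0.132). It was also lost without Runt replicate 1 or 2 or Runt G163R replicate 3 (adjusted p 0.0542 to 0.0551), with array weights, with the replicate block, without a filter and on the 6 arrays alone (adjusted p 0.0563 to 0.11). All 6 arrays of the Runt experiment were well above both groups, at 7.17 ± 0.12 with Runt and 7.04 ± 0.21 with Runt G163R (SD, n = 3 each). The remaining Lcp65A genes with a probe set of their own, Lcp65Aa, Lcp65Ac, Lcp65Ae and Lcp65Ag3, stayed in the floor, and the only one of them tested, Lcp65Aa, differed by -0.04 (adjusted p = 0.265). Lcp9 of 2R also lay in the floor, between 2.66 and 2.97 on all 12 arrays, and differed by 0.07 (adjusted p = 0.544).

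Osi6, an Osiris gene of 3R, was at 7.91, 7.42 and 8.19 in sens mutants and 3.86, 5.17 and 4.61 in controls. Every mutant array lay above every other array of the series. The rise was 3.29 (SE 0.376, adjusted p = 0.00044), or 9.79-fold. Runt discs averaged 5.88 ± 0.29 and Runt G163R discs 5.28 ± 0.56 (SD, n = 3 each), so the means of those groups lay between sens mutants and controls.

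Osi4, also on 3R, was at 5.28, 5.24 and 5.52 in sens mutants and 2.91, 2.96 and 2.97 in controls. Here the control arrays were the ones that lay in the floor, while the mutants were at the level of the Runt G163R arrays. The rise was 2.40 (SE 0.268, adjusted p = 0.000394), or 5.28-fold against control values in the floor. Runt G163R discs were at 5.61, 5.24 and 5.20.

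**Figure D2:**
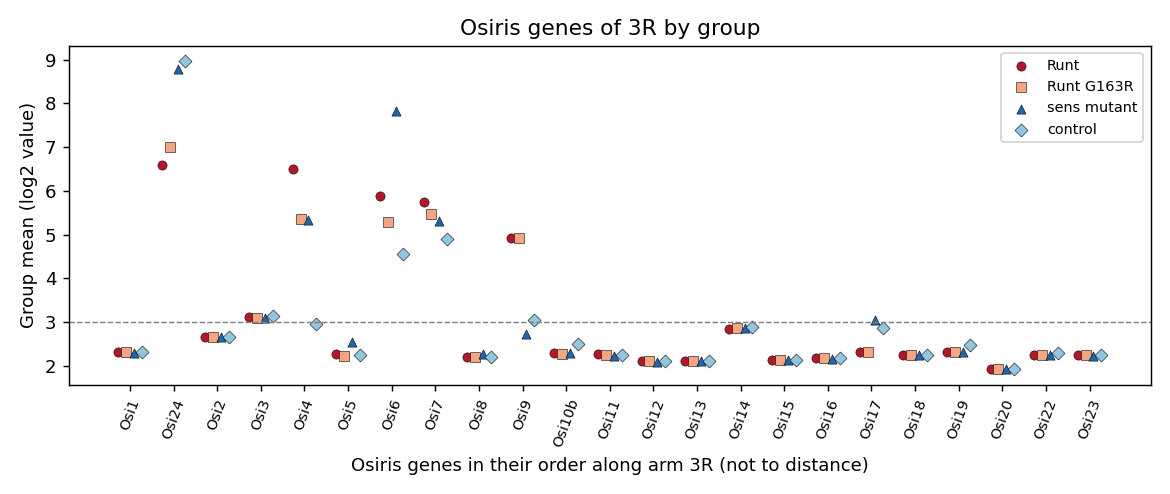
Group means (log2 value, vertical axis) of the 23 Osiris genes of 3R, placed in their order along the arm without regard to distance, for Runt, Runt G163R, sens mutant and control. The dashed line marks the floor at 3. Osi24, Osi4, Osi6, Osi7 and Osi9 have a group mean well above it, Osi3 lies just above it in all groups and Osi17 only in sens mutants, while Osi5 and Osi8 stay below it in all groups.

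The calls in the Osiris cluster were therefore those of 2 genes of 9 tested. Osi5, which stands between Osi4 and Osi6, had values of 2.22 to 2.69, all in the floor, and was not tested. It was at 2.69, 2.29 and 2.67 in sens mutants and 2.25, 2.23 and 2.23 in controls, which did not overlap. Osi7, next to Osi6, was at 5.05, 5.54 and 5.35 in sens mutants and 4.61, 4.97 and 5.14 in controls, with a difference of 0.41 (SE 0.253, adjusted p = 0.301). Osi9 was at 2.74 ± 0.20 in sens mutants and 3.04 ± 0.16 in controls (SD, n = 3 each) and did not pass the test. Osi24, which follows Osi1 in the order along 3R, was at 8.94, 8.56 and 8.89 in sens mutants and 8.97, 8.99 and 8.93 in controls. Its difference was -0.17 (SE 0.144, adjusted p = 0.44). The other Osiris genes tested, Osi2, Osi3, Osi14 and Osi17, lay near or in the floor and did not pass.

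TwdlT, a Tweedle gene of 3R, was at 7.16, 6.73 and 6.81 in sens mutants and 4.04, 4.28 and 4.49 in controls. The control arrays overlapped the range of the Runt experiment, where its 6 arrays lay between 3.75 and 4.32. The rise was 2.63 (SE 0.186, adjusted p = 2.45e-05), or 6.18-fold. It was the only Tweedle gene of 11 tested that was called. TwdlE, the Tweedle gene of 2L, was at 10.49, 10.47 and 10.60 in sens mutants and 9.85, 10.06 and 9.92 in controls. Its arrays did not overlap, but the difference of 0.58 (SE 0.221) had an adjusted p of 0.104, and of 0.0081 on the 6 arrays of this experiment alone. TwdlC of 3R gave 3.58 ± 0.014 and 3.71 ± 0.14 (SD, n = 3 each, mutants and controls), a difference of -0.12 (adjusted p = 0.267).

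Among the Cpr genes, 1 of 29 tested rose and 1 fell. Cpr97Ea, a Cpr gene of 3R, was at 7.82, 7.80 and 7.94 in sens mutants and 6.50, 6.62 and 6.84 in controls. It rose by 1.20 (SE 0.111, adjusted p = 0.000121), or 2.3-fold. The Runt experiment stood above both groups, with 6 arrays between 8.40 and 8.70, so the controls were farthest from the rest. The next gene, Cpr97Eb, was in the floor and differed by -0.02 (adjusted p = 0.876).

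Cpr64Ac of 3L was at 2.58, 2.57 and 2.57 in sens mutants and 2.61, 3.43 and 3.30 in controls. It fell by 0.54 (SE 0.164, adjusted p = 0.0498), with control replicate 1 close to the mutant values and all 9 arrays of the other groups between 2.57 and 2.63. The call held in 3 of 21 alternatives, and leaving out any single array other than control replicate 1 removed it (adjusted p 0.0629 to 0.14). Without control replicate 1 the fall was 0.79 (adjusted p = 3.34e-06).

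Several Cpr genes with a clear signal did not pass. Cpr51A of 2R averaged 8.33 ± 0.15 in sens mutants and 8.54 ± 0.084 in controls (SD, n = 3 each), a difference of -0.22 (adjusted p = 0.459). Cpr49Ac of 2R was at 8.49, 8.87 and 8.28 in sens mutants and 9.11, 9.72 and 8.75 in controls, a difference of -0.65 (SE 0.217, adjusted p = 0.0701). It was called in 5 of 22 alternatives, among them array weights (-0.87, adjusted p = 0.0131) and those without sens mutant replicate 2 (-0.81, adjusted p = 0.0476) and without control replicate 3 (-0.87, adjusted p = 0.0171). Cpr66D of 3L, another protein of the adult corneal lens, averaged 8.62 ± 0.24 in sens mutants and 8.34 ± 0.22 in controls (SD, n = 3 each), with a difference of 0.28 (adjusted p = 0.447).

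Cpr12A of the X had the widest spread within a group. It was at 2.46, 4.01 and 4.30 in sens mutants and 3.36, 6.65 and 5.68 in controls, and in the floor on all 6 arrays of the Runt experiment. The difference of -1.64 (SE 0.718) had an adjusted p of 0.153. With array weights it was -2.88 (adjusted p = 0.00846). Without control replicate 1 it was -2.57 (adjusted p = 0.01), and without that array TwdlW of 3R also passed, at -0.77 (adjusted p = 0.00637, against -0.51 and 0.111 with all arrays).

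**Figure D3:**
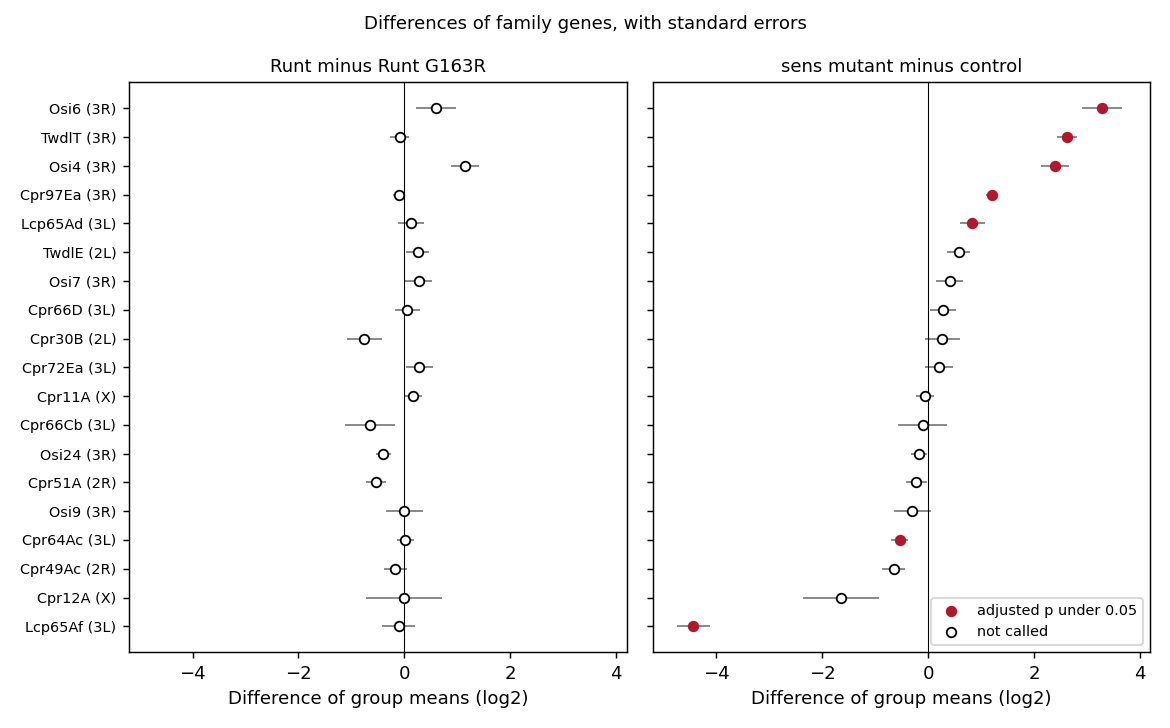
Differences of group means (log2, horizontal axis) with standard errors from the limma fit, for Runt minus Runt G163R (left) and sens mutant minus control (right), in the 18 genes with an array above 5 and Cpr64Ac. Filled points passed an adjusted p of 0.05. The 7 filled points are all in the sens panel, from -4.44 for Lcp65Af to 3.29 for Osi6, and all carry an arm of chromosome 3.

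All 7 genes called lie on chromosome 3. Of the members tested, 36 lie on chromosome 3 and 17 on X and 2, and the calls were 7 and 0 of these. This split did not hold under every alternative: Cpr12A of the X was called in 3 of 21, Cpr49Ac of 2R in 5 of 22 and TwdlE of 2L in 1 of 22. Cpr64Ac, Lcp65Ad and Lcp65Af lie on 3L and Osi4, Osi6, TwdlT and Cpr97Ea on 3R. Over all probe sets tested, 22% were called on chromosome 3 and 16.3% on X, 2 and 4. At unadjusted p under 0.05, 12 of 53 members passed in this comparison, beside 30.9% of all probe sets. The gene sens also lies on 3L.

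The genes nearest to each called member were also counted. Of the 10 tested genes nearest to each, 5 on each side, 1 or 2 were called, beside 23.3% of all probe sets tested on 3L and 21% on 3R. These sets of 10 overlap where called members are neighbours, and whether calls cluster was not tested. TwdlT was the only one called of the 10 around Cpr97Ea. Osi4 and the gene CG17919 were the 2 called of the 10 nearest to Osi6. Around Lcp65Af, Lcp65Ad and loj, which encodes a p24 family protein, were called of 10. Around Cpr64Ac, Sqor and VhaM9.7-c were called of 10, both higher, by 1.69 and 0.62. Apart from members, the genes nearest to TwdlT and Cpr97Ea included spz, the Toll ligand gene, which differed by 0.77 without passing the test (adjusted p = 0.164).

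In the Runt comparison discs with Runt were set against discs with the altered Runt. By limma, 0 of 53 tested members were called, beside 0.0436% of all probe sets, 0.0349% higher and 0.00872% lower. At an unadjusted p under 0.05 there were 4 members, Osi4, Osi24, Cpr51A and Cpr30B, beside 6.36% of all probe sets. The arrays of the groups did not overlap for 5 of 53, beside 9.44%. With array weights, which give less weight to arrays that depart from their group, 5 members were called, beside 4.06% of all probe sets.

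Osi4 was at 6.59, 7.07 and 5.82 with Runt and 5.61, 5.24 and 5.20 with Runt G163R. The groups did not overlap, but Runt replicate 3 lay close to the highest Runt G163R array. The difference was 1.15 (log2, SE 0.268, unadjusted p = 0.00168, adjusted p = 0.416). Without Runt replicate 3 it was 1.48 (adjusted p = 0.00853), in a fit that called 1.04% of all probe sets. With array weights it was 1.57 (adjusted p = 0.00559).

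Cpr51A was at 10.22, 10.08 and 10.98 with Runt and 10.91, 10.96 and 11.00 with Runt G163R, where Runt replicate 3 lay within the Runt G163R range. The difference was -0.53 (SE 0.193, adjusted p = 0.712), and without that array -0.81 (adjusted p = 0.00465). Cpr30B of 2L showed the same arrangement, at 5.71, 5.80 and 6.91 with Runt and 6.59, 7.06 and 7.04 with Runt G163R. Its difference was -0.76 (SE 0.331, adjusted p = 0.773), and with array weights -1.11 (adjusted p = 0.0228). Osi24 was at 6.65, 6.58 and 6.57 with Runt and 6.85, 7.33 and 6.83 with Runt G163R, a difference of -0.40 (SE 0.144, adjusted p = 0.712), and with array weights -0.63 (adjusted p = 0.0324). Cpr72Eb of 3L lay near the floor and was called only with array weights (-0.47, adjusted p = 0.0461) or without Runt G163R replicate 1 (-0.59, adjusted p = 0.0266, in a fit that called 0.0612% of all probe sets). Its difference over all arrays was -0.35 (adjusted p = 0.805).

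The genes called in the sens comparison had differences of 0.59 (Osi6), -0.09 (TwdlT), -0.10 (Cpr97Ea), 0.13 (Lcp65Ad), -0.10 (Lcp65Af) and 0.02 (Cpr64Ac) between Runt and Runt G163R. The sens difference minus the Runt difference was tested in the same fit, and 4 members passed, 3 higher and 1 lower, beside 10.1% of all probe sets, 6.74% higher and 3.35% lower. At an unadjusted p under 0.05 the share of all probe sets was 26.6%. This difference of differences was 2.72 for TwdlT (SE 0.263, adjusted p = 0.000371), 1.31 for Cpr97Ea (SE 0.157, adjusted p = 0.00134) and 2.70 for Osi6 (SE 0.532, adjusted p = 0.0134). For Lcp65Af it was -4.33 (SE 0.439, adjusted p = 0.000505). For Osi4, which was higher with Runt and in sens mutants, it was 1.25 (SE 0.38, adjusted p = 0.0649) and did not pass.

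Some members separated the experiments more than the groups within them. For 10 of 53 tested members the 6 arrays of one experiment lay all above the 6 of the other, beside 23.8% of all probe sets, and 5 were higher in each. The experiments differ in genotype and may differ in handling, and these cannot be told apart, so no test was made. Cpr51A averaged 10.43 ± 0.49 with Runt and 10.96 ± 0.044 with Runt G163R, and Osi9 4.93 ± 0.80 with Runt and 4.93 ± 0.41 with Runt G163R (SD, n = 3 each), both above every sens mutant and control array. Cpr49Ac, Cpr97Ea and Lcp65Ad were the others that were higher there. Cpr66D averaged 6.49 ± 0.41 with Runt and 6.43 ± 0.34 with Runt G163R (SD, n = 3 each), below every sens mutant and control array, as did TwdlE, Osi24, and in or near the floor Osi17 and TwdlW. Cpr11A of the X stayed between 5.45 and 6.11 on all 12 arrays, and Cpr67Fa2 of 3L between 3.94 and 4.56.

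Other genes of cuticle formation were counted in lists of genes known for that role. Of 18 further structural cuticle genes with a probe set, 6 were tested and 0 were called in either comparison, beside the 16.9% above. The chitin-binding genes Gasp and obst-A had means of 12.94 and 13.30 in sens mutants and 12.83 and 13.25 in controls. Of 23 chitin synthesis and modification genes tested, 4 rose and 4 fell in sens mutants and 0 were called with Runt. Over all probe sets tested 11.6% were called higher and 5.3% lower in sens mutants, so both shares were larger in this list. The number called in the list was 5 to 8 under the alternatives, and no set test was made. The chitinase gene Cht5 rose by 1.99 (SE 0.215, adjusted p = 0.000326), at 9.12, 9.26 and 9.26 in sens mutants and 6.81, 7.72 and 7.14 in controls. Gfat2, an enzyme at the start of the hexosamine pathway, rose by 0.44. The chitinase family genes Cht6 and Cht7 fell by 0.98 and 0.67.

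Of 11 tanning and pigment genes tested, 1 rose and 1 fell in sens mutants, which like the next count is near the 16.9% of all probe sets called. The gene yellow-d rose by 1.63 (SE 0.263, adjusted p = 0.00298), and Ddc, which encodes dopa decarboxylase, fell by 2.74 (log2, SE 0.201, adjusted p = 3.11e-05). Of 16 ecdysone response and epidermal transcription factor genes tested, 2 rose, Blimp-1, an ecdysone-induced repressor, by 1.19 (SE 0.175, adjusted p = 0.00175) and the nuclear receptor gene Hr4 by 0.73 (adjusted p = 0.0361). None of 7 zona pellucida genes of the apical matrix passed. With Runt no gene of these lists was called. Median differences of the 5 lists in the sens comparison lay between -0.06 and 0.07, beside 0.03 for all probe sets tested.

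Some genes in marker lists named for other tissues were called in the sens comparison as well. These counts are to be read beside the 11.6% of all probe sets called higher and 5.3% called lower. The listed genes are not exclusive to those tissues, and some are also expressed in eye discs. Of the 10 eye disc markers, 2 rose and 2 fell in sens mutants, and sens itself was among those that rose. Of 6 brain and neuroblast markers 5 fell in sens mutants, with list means of 5.88 to 5.99 in mutants and 6.81 to 7.28 in controls, and of 9 antenna and leg disc markers 4 fell (7.74 to 7.97 in mutants, 8.30 to 8.66 in controls). The 4 fat body markers ranged between arrays of a group, from 3.41 to 9.19 in sens mutants and 3.60 to 10.76 in controls, and the 10 salivary gland markers from 3.07 to 5.45 in mutants and 3.07 to 3.19 in controls. None of these fat body and salivary markers was called, but 0 to 3 salivary gland markers were called under the alternatives. Median differences of the tested genes were -1.19 for fat body and 1.24 for salivary gland. Of 6 tracheal markers, btl and dysf lay in the floor on all arrays, while serp rose by 0.33 and verm fell by 0.21. Both serp and verm are also in the chitin list and were counted there. The tracheal list means were 8.79 to 8.91 in mutants and 8.77 to 8.85 in controls. Of 5 muscle markers none was called, with list means of 2.93 to 3.20 in mutants and 2.91 to 3.31 in controls. The 8 haemocyte markers averaged 5.22 to 5.38 in sens mutants and 5.32 to 6.27 in controls, against 7.87 to 8.63 in the Runt experiment. The part of these markers in the differences of the cuticle genes was not tested.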

How the data were processed

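RNA of eye discs was hybridised to 12 arrays. Total RNA was taken with Trizol and 6 ug of it was labelled with biotin, per the labels' protocols. The authors deposited log2 values, as judged from their range and near-equal quantiles; MAS5, GCRMA and affy are named in the submitters' processing notes with no role or version, and the background correction is not given in the sources used here. The 12 sample columns were all used.

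Probe sets were named from the platform annotation. All 121 members were matched by gene identifier to RefSeq (Release 6 plus ISO1 MT), used for symbols, arms and gene order. A probe set was kept if at least 3 arrays exceeded their own 40th percentile (11470 of 18769). Group means of all 12 arrays were fitted with limma 3.58.1 in R 4.3.3 (eBayes with trend), with two-sided tests and Benjamini-Hochberg adjustment over all kept probe sets. Every adjusted p is from this test, SE is that of the moderated fit, and the number of arrays limits precision. The fit was checked on simulated data.

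The members and lists were chosen with earlier results of these data known. Named members are those called and the 3 with the highest mean per family. After values were seen, some of those above 5 on an array or called under an alternative, and some others, were also named. A gene with 2 probe sets is given by the one with the higher mean. List genes named are up to 4 called with the smallest p, and others (Gasp, obst-A, Cht7, btl, dysf, verm, gl, so) and neighbouring genes were named after values were seen. Alternatives changed the filter, the normalization, the variance model, the weights or the arrays used, added a replicate block, averaged a gene's probe sets, or left out 1 array.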

Additional observations from a re-analysis of the deposited data

How the results depend on the processing

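In the sens comparison the member count of 7 was 5 to 8 when single arrays were left out, with 4 to 5 higher and 1 to 4 lower. The count of 2 lower was 1 without a filter, after a second quantile normalization, after median subtraction, without an intensity trend, with a robust fit and on the 6 arrays alone, and 6 with array weights. The share higher, 5 of 7, was 5 of 6 after median subtraction, 4 of 10 with array weights and 4 of 8 without control replicate 1. In the Runt comparison the count of 0 was 5 with array weights (1 higher, 4 lower) and 0 to 2 when single arrays were left out (0 to 1 in each direction). The 2 without Runt replicate 3 were Osi4 and Cpr51A, and the 1 without Runt G163R replicate 1 was Cpr72Eb. For the difference between the comparisons the count of 4 was 11 with array weights (6 higher, 5 lower) and 4 to 7 when single arrays were left out (3 to 5 higher, 1 to 4 lower). The 7 came without control replicate 1. The cause of these shifts was not tested.

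Deviations of same-numbered arrays correlated at 0.256, -0.121 and 0.0646 in the Runt experiment and -0.42, -0.0674 and 0.0756 in the sens experiment. Those of differently numbered arrays correlated at -0.207 to 0.178 in the Runt experiment and -0.383 to 0.394 in the sens experiment. Same-numbered arrays thus did not consistently deviate together, and the numbers were not taken as pairs. With a replicate block 7 members were called in the sens comparison, 0 in the Runt comparison and 3 for the difference, where Osi6 had an adjusted p of 0.0515. The 7 members of the sens comparison were not the same: Cpr49Ac (adjusted p = 0.00958) and Cpr12A (0.0273) were called, while Lcp65Ad (0.0848) and Cpr64Ac (0.0756) were not. No named member changed direction in a call. Signal near the floor limits most members: 68 of 121 genes could not be tested.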

Other observations

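A probe set that matches a pair of Cpr genes of 3L, left out of the comparisons because it names no single gene, was lower in sens mutants by 0.20 (log2, limma adjusted p = 0.0314), with all 12 arrays between 3.14 and 3.48. Cpr67Fa1 and Cpr67Fa2, which have probe sets of their own, differed in the other direction. They were higher in sens mutants by 0.02 and 0.20 and did not pass (adjusted p = 0.929 and 0.298). Pcp, a pupal cuticle gene, was at 3.69, 3.05 and 4.30 with Runt and 5.28, 4.99 and 4.02 with Runt G163R, and at 2.59 to 2.96 on the sens mutant and control arrays. Its arrays overlapped between Runt and Runt G163R, and the difference of -1.08 did not pass (limma adjusted p = 0.673).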
